A study of Saccharomyces cerevisiae with 30 samples.

Results

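Proteins held at the cell surface by a glycosylphosphatidylinositol (GPI) anchor were followed in Saccharomyces cerevisiae through ribosome footprints and poly(A) RNA of soluble, membrane-bound and signal recognition particle (SRP)-bound fractions. The authors' deposited annotation marks 57 of 5904 open reading frames as GPI-anchored. Of these, 8 wall mannoproteins (CCW12, CWP1, CWP2, SED1, TIR1, TIR2, TIR3 and TIR4) were left out by name, not by length. The other 49 are described here as the members. DAN1, also set aside by name, is not marked as GPI-anchored in that annotation and so had no effect on the count. The members were chosen by annotation and name, not by a measured value, though with earlier results of these data known.

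A GPI-anchored protein enters the endoplasmic reticulum (ER) by an N-terminal signal sequence, and a second, C-terminal signal is then exchanged for a preassembled glycolipid by the GPI transamidase. The anchor is remodelled, and p24 proteins collect the anchored protein into vesicles leaving the ER. In budding yeast such proteins stay at the plasma membrane or are linked to wall glucan, where they build, cross-link or coat the wall. SRP binds a signal sequence as it leaves the ribosome and brings the ribosome to the ER, while proteins too short to be bound in time can be translocated after synthesis.

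The authors' deposited class was a signal sequence alone for all 49 members, with the first signal starting at codon 3 to 13. The length from that signal to the stop codon, the signal-to-stop length, ran from 55 codons in DDR2 to 1605 in FIG2, with a median of 478. In the other 178 genes of the signal-sequence class the median was 323 codons. The authors' deposited table called 48 members SRP-independent and 1 (the flocculin FLO5) SRP-dependent.

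Footprint cells were BY4741 with a tandem affinity (TAP) tag on the SRP subunit SRP72 (genotype srp72::SRP72-TAP-HIS3MX), grown in rich medium to mid-log phase. Cells that met no drug gave 2 polysome libraries in each of 3 fractions: soluble, membrane, and SRP72-bound, the last pulled down by the tag. The same strain treated at harvest with 100 µg/mL of cycloheximide (CHX), an inhibitor of translation elongation, gave 1 library each of soluble ribosomes, membrane ribosomes, soluble polysomes and SRP72-bound polysomes. Poly(A) RNA, 1 library per fraction, came from BY4741 SRP72-TAP lysates incubated with CHX or with puromycin, which releases nascent chains. It also came from W303 and from the prt1-1 mutant (strain CY2522; PRT1 encodes a subunit of initiation factor eIF3, and the allele is temperature-sensitive), each grown at 25 °C or shifted to 37 °C for 1 h. These strains also differ in background, and no label gives their full genotype.

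Counts of 24 libraries were used, 10 of footprints (16.058 to 34.662 M counts) and 14 of RNA (3.139 to 34.3 M). No label says that the replicates were grown apart, and the p-values therefore cover the spread of these libraries alone, which may be technical. Fractions behaved as labelled for messages read at the ER: KAR2, SEC61, PDI1 and PMA1 were higher on membranes by a median log2 fold change of 6.42. PGK1, TDH3, ADH1 and EFB1, read in the cytosol, were little depleted there, at a median of −0.26, with 1 of the 4 called lower. On SRP72-bound polysomes the medians were 6.93 and −0.74, with all 4 cytosolic messages called lower. Members took 0.293% and 0.296% of soluble polysome counts, 4.33% and 4.14% of membrane counts and 3.71% and 3.69% of SRP72-bound counts. Levels below are CPM (counts per M counts of the library, scaled by TMM) with replicate 1 given first, differences are log2 fold changes ± SE, and adjusted p-values come from the quasi-likelihood test of edgeR, adjusted by Benjamini-Hochberg over 5393 tested genes.

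Enough footprints for the test were found for 40 members. The 9 others were the flocculins FLO1, FLO5, FLO9, FLO10 and MUC1 (also called FLO11), the anaerobic mannoprotein DAN4, the sporulation genes SPO19 and SPR2, and ANS1. FLO1, FLO5 and FLO9 are near-identical in places, so reads cannot be assigned securely among them. Of the 40, 34 passed the count filter in the soluble libraries themselves. The sporulation genes GAS2, GAS4 and SPS22, the iron mannoprotein FIT1 and the mating agglutinins SAG1 and FIG2 did not pass in both soluble libraries. They were kept only through the enriched fractions, so the filter favoured a rise there and their rise is no independent support. Counts by role and by gene below include these 6, and counts over all members and by length are given for the 34 as well.

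**Figure D1:**
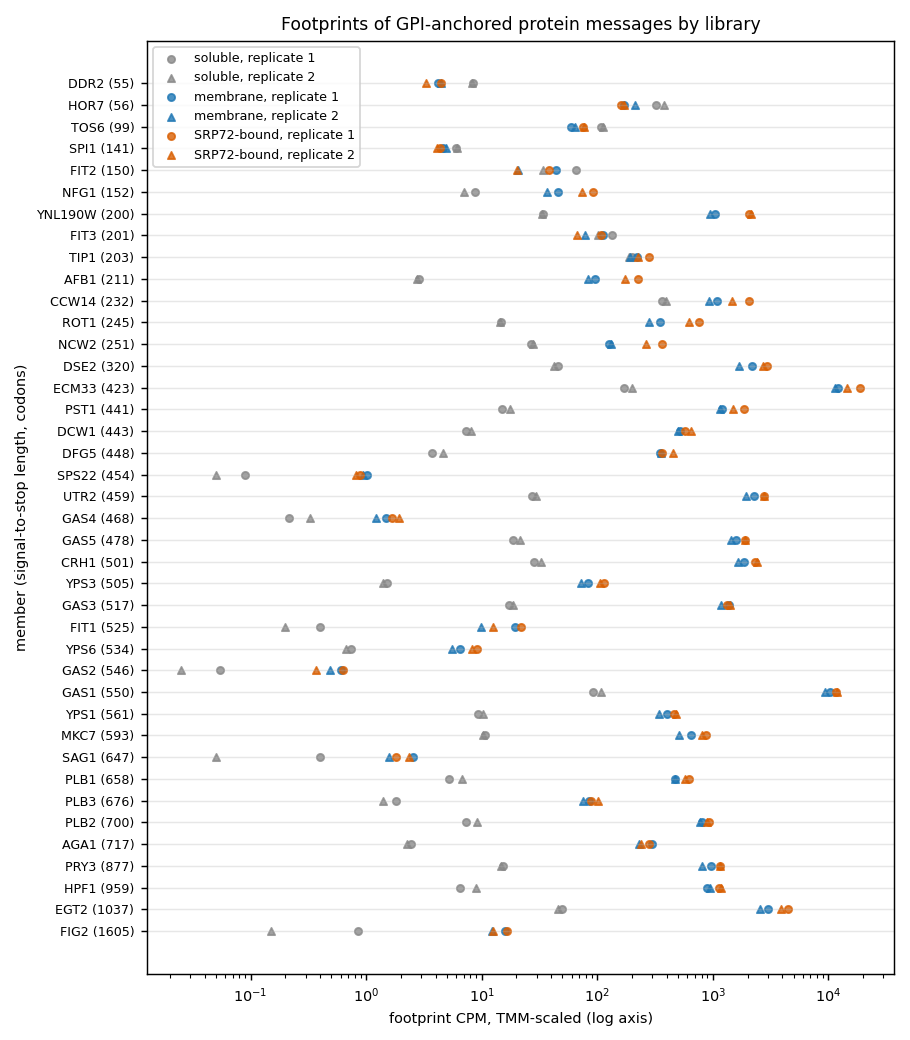
Footprint CPM (log axis) of the 40 tested members in each of the 6 polysome libraries without drug, ordered from the shortest to the longest signal-to-stop length. Circles are replicate 1 and triangles replicate 2; grey is soluble, blue membrane and orange SRP72-bound. Soluble libraries lie to the right for the shortest members (HOR7 at 321 and 379 CPM) and far to the left for the long ones (GAS1 at 91.2 and 107 CPM).

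Membrane and soluble polysomes were set against each other to see which member messages are read at membranes. Wall enzymes of the GAS and CRH families stood far higher on membranes, while DDR2, HOR7, TOS6 and SPI1, the members of shortest signal-to-stop length, were read more in the soluble fraction. Of the 40 tested members 33 rose on membranes, all by over 2-fold, 4 fell and 3 were not called; among all genes 69.1% were called, 34.2% higher, 23.5% higher by over 2-fold and 34.9% lower. Of the 34 that passed in soluble libraries 27 rose and 4 fell, with a median log2 fold change of 5.67, against −0.07 over all tested genes. With scaling to the cytonuclear class in place of TMM the all-gene median became 0.15, calls across all genes became 71.1% higher in place of 49.5%, and the median of the 40 members was 5.56 in place of 5.34.

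All 5 members of the GAS family, β-1,3-glucanosyltransferases that elongate wall glucan, rose on membranes. For GAS2 and GAS4, kept by the count filter only through the enriched fractions, the filter favoured a rise, which is no independent support. GAS1 (YMR307W, chromosome XIII 887003 to 888682 in R64) was read at 91.2 and 107 CPM in soluble and 10413 and 9313 CPM in membrane polysomes, and at 11759 and 11875 CPM in SRP72-bound polysomes. Both enriched fractions stood far above the soluble libraries with no overlap, 99.4-fold on membranes. The log2 fold change on membranes was 6.64 ± 0.17 (adjusted p = 1.23e-08, edgeR) and on SRP72-bound polysomes 6.90 ± 0.17. GAS3 and GAS5 rose on membranes by 6.16 ± 0.14 and 6.24 ± 0.13. The sporulation-specific GAS2 and GAS4, scarcely read in these growing cells (GAS4 at 1.48 and 1.22 CPM on membranes), rose by 3.60 ± 0.55 and 2.35 ± 0.30.

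CRH1 and UTR2, transglycosylases that join chitin to glucan, rose on membranes by 5.86 ± 0.14 and 6.22 ± 0.14. UTR2 went from 27.4 and 29.6 CPM in soluble to 2291 and 1949 in membrane and 2763 and 2778 in SRP72-bound polysomes, and its fractions did not overlap. DFG5 and DCW1, mannosidase-like proteins needed for bud growth and wall assembly, rose by 6.41 ± 0.17 and 6.05 ± 0.13 (adjusted p = 1.26e-08 and 1.09e-08, edgeR). EGT2 and DSE2, which act in the separation of daughter cells, rose by 5.87 ± 0.15 and 5.45 ± 0.17.

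ECM33 and PST1, related proteins needed for wall integrity, rose by 5.99 ± 0.20 and 6.16 ± 0.16. The sporulation relative SPS22, which passed the filter through the enriched fractions alone, rose by 3.68 ± 0.39. ECM33 had the highest level per length of any member on membranes, at 9118 CPM per kb of coding length, followed by GAS1 at 5881 and DSE2 at 1979. In soluble polysomes the order per kb was led by HOR7 at 1976, CCW14 at 529 and TOS6 at 359, with ECM33 at 144.

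The 4 yapsin proteases rose, YPS1 by 5.24 ± 0.13, YPS3 by 5.73 ± 0.12, MKC7 by 5.80 ± 0.16 and YPS6 by 3.09 ± 0.17. YPS6, read at 0.739 and 0.673 CPM in soluble and 6.51 and 5.56 on membranes, stood well under the other 3 in fold change, though its groups did not overlap. The phospholipases B, which deacylate phospholipids at the surface, rose too: PLB1 by 6.30 ± 0.15, PLB2 by 6.59 ± 0.15 and PLB3 by 5.61 ± 0.14.

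Among the agglutinins, AGA1, the anchoring subunit of a-agglutinin, rose by 6.81 ± 0.19, from 2.43 and 2.24 CPM to 298 and 229. FIG2, an adhesin of mating cells, rose by 4.69 ± 0.37, and SAG1, the α-agglutinin, by 3.06 ± 0.52. FIG2 and SAG1 passed the filter through the enriched fractions alone. SAG1 had soluble replicates of 0.396 and 0.0499 CPM, further apart than those of any other tested member. HPF1, a mannoprotein known for reducing wine haze, had the highest fold change of all members on membranes, 6.91 ± 0.18, from 6.51 and 8.88 CPM in soluble to 887 and 950.3 in membrane polysomes. PRY3, of the CAP protein family, rose by 5.90 ± 0.13.

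The members that fell on membranes were the 4 with a signal-to-stop length under 150 codons. DDR2 (YOL052C-A, chromosome XV 231570 to 231755 in R64; 55 codons from signal to stop), a gene induced by many stresses, was read at 8.40 and 8.25 CPM in soluble, 4.19 and 4.42 in membrane and 4.44 and 3.33 in SRP72-bound polysomes. Both soluble libraries were above all 4 others, and DDR2 fell, with log2 fold changes of −0.95 ± 0.13 (adjusted p = 0.000248, edgeR) on membranes and −1.07 ± 0.14 on SRP72-bound polysomes. HOR7, responsive to osmotic stress, was at 321 and 379 CPM in soluble, 172 and 213 in membrane and 159.5 and 169.9 in SRP72-bound polysomes. Its soluble libraries were again above all others, with log2 fold changes of −0.86 ± 0.13 and −1.09 ± 0.13.

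TOS6, a wall mannoprotein of 99 codons from signal to stop, was read at 108 and 111 CPM in soluble, 59.8 and 63.8 in membrane and 75.4 and 76.1 in SRP72-bound polysomes. It fell too, with log2 fold changes of −0.83 ± 0.07 and −0.53 ± 0.07, and the soluble libraries did not overlap the others. SPI1, a wall protein induced by weak acid and in stationary phase (141 codons), was at 6.04 and 6.13 CPM in soluble, 4.58 and 4.87 in membrane and 4.39 and 4.07 in SRP72-bound polysomes. Its fall on membranes, −0.37 ± 0.11 (adjusted p = 0.0169, edgeR), rested on the choice of method: the call ended with cytosolic scaling (−0.15), with DESeq2 (−0.33) and without soluble replicate 1 (−0.37), soluble replicate 2 (−0.35) or membrane replicate 1 (−0.32). The cytosolic messages PGK1, TDH3, ADH1 and EFB1 spanned −0.56 to −0.21 on membranes and −1.01 to −0.68 on SRP72-bound polysomes.

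Members of 150 to 400 codons from signal to stop divided. Of these 10, 7 rose on membranes and 3 were not called, while none of the 4 under 150 codons did. All 26 tested members of over 400 codons rose, but 6 of them had passed the filter through the enriched fractions alone, which leaves 20 of 20. The medians over the 34 were −0.85, 2.31 and 6.10 from the shortest to the longest bin. In the other tested genes of the signal-sequence class, which were not held to the soluble filter, 4 of 14, 48 of 55 and 59 of 64 rose in the same bins. Across the 34 members Spearman's rho between length and fold change was 0.783 and Pearson's r with the length on a log scale 0.862 (0.656 and 0.788 across the 40), a description of genes that share the same 4 libraries. Protein length in place of signal-to-stop length gave 0.658 and 0.790 across the 40, so these lengths cannot be told apart here.

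**Figure D2:**
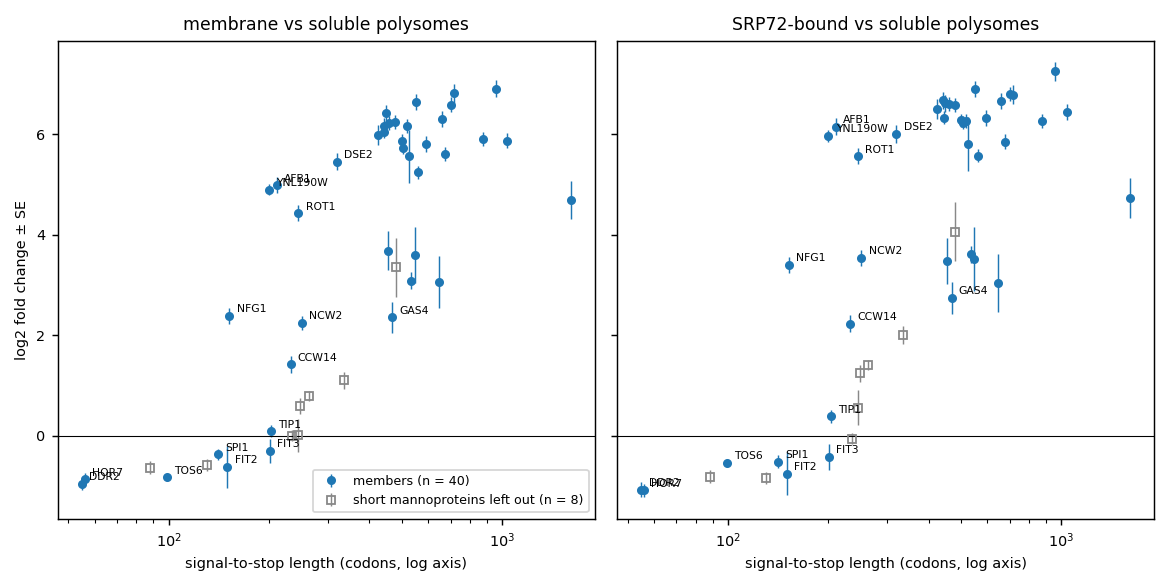
Log2 fold change ± SE of membrane (left) and SRP72-bound (right) against soluble polysomes, by signal-to-stop length in codons on a log axis. Filled blue circles are the 40 tested members and open grey squares the 8 mannoproteins left out (labelled short in the legend). The 4 members under 150 codons lie below 0 in both panels, and members near 200 codons spread from FIT3 (−0.30 on membranes) to AFB1 (4.98).

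Length alone did not order the middle members, since genes of nearly equal length lay far apart. TIP1 (YBR067C, chromosome II 372103 to 372735 in R64), a wall mannoprotein of the cold-shock TIP/TIR family with 203 codons from signal to stop, was read at 200.4 and 188 CPM in soluble and 219 and 194 CPM in membrane polysomes. The groups overlapped, membrane replicate 2 lying between the soluble replicates, and the difference of 0.09 ± 0.12 was not called (adjusted p = 0.53, edgeR). YNL190W, of 200 codons (chromosome XIV 282395 to 283009 in R64), was at 33.8 and 33.5 CPM in soluble and 1050.5 and 955 CPM in membrane polysomes, and rose by 4.90 ± 0.11. AFB1, the a-factor barrier protein (211 codons), rose by 4.98 ± 0.16, from 2.85 and 2.77 to 95.1 and 83.0 CPM. ROT1, an ER protein needed for β-1,6-glucan synthesis (245 codons), rose by 4.43 ± 0.16.

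Between these extremes stood 3 others. NFG1 (152 codons), a negative regulator of filamentous growth, rose by 2.38 ± 0.16 from 8.74 and 6.98 to 45.4 and 36.9 CPM. NCW2 (251 codons), a wall mannoprotein, rose by 2.24 ± 0.15 from 26.6 and 27.6 to 126 and 131 CPM. CCW14 (232 codons), a covalently linked inner-wall mannoprotein, rose by 1.42 ± 0.17 (adjusted p = 0.000119, edgeR) from 363 and 393 to 1094 and 934 CPM. In all 3 the soluble libraries lay below the membrane libraries.

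The FIT mannoproteins hold iron-bearing siderophores at the wall. FIT1 (525 codons), which passed the filter through the enriched fractions alone, rose on membranes by 5.56 ± 0.53. FIT2 (150 codons) stood at −0.62 ± 0.41 and FIT3 (201 codons) at −0.30 ± 0.25, neither called (adjusted p = 0.209 and 0.3, edgeR). FIT2 was read at 65.8 and 34.1 CPM in soluble, 43.9 and 20.6 in membrane and 38.2 and 20.4 in SRP72-bound polysomes, and FIT3 at 134 and 102, 112 and 78.4 and 109 and 66.4. In both genes replicate 1 was the higher of the pair in all 3 fractions, so that the fractions overlapped. FIT1 had the same order, with log2 ratios of replicate 1 to replicate 2 of 0.99, 0.99 and 0.79, against 0.95, 1.09 and 0.91 for FIT2 and 0.40, 0.52 and 0.71 for FIT3. With the replicate number as a block in the fit both were called lower on membranes, at −0.64 and −0.32, and on SRP72-bound polysomes, at −0.77 and −0.45, though nothing in the labels shows that the numbers pair libraries.

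The 8 mannoproteins left out ran from 88 to 481 codons from signal to stop. Their median on membranes was 0.30, with 4 called higher and 2 lower, against 34.2% and 34.9% of all genes. TIR4, 1 of the 4 higher, passed the count filter through the enriched fractions alone, so the filter favoured a rise there. TIP1, SPI1, FIT2 and FIT3 lay among the values of these 8 rather than among those of YNL190W or AFB1, as seen in the plot of fold change by length.

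Machinery that makes and handles the anchor was also read at membranes. Of 17 genes of GPI synthesis 15 rose and 2 fell, against 34.2% called higher and 34.9% lower among all genes. Their median log2 fold change was 4.69, from ERI1 at −0.67 ± 0.20 to MCD4 at 7.21 ± 0.29. ERI1 is a small subunit of the first transferase, and MCD4 adds phosphoethanolamine. PBN1, a subunit of the first mannosyltransferase, also fell (−0.39 ± 0.08). That value lay within the range of the cytosolic messages PGK1, TDH3, ADH1 and EFB1 (−0.56 to −0.21). All 5 transamidase subunits rose (median 6.36, from GAB1 at 5.19 to GAA1 at 6.93), as did all 6 remodelling genes (median 6.01) and the 4 p24 genes EMP24, ERV25, ERP1 and ERP2 (median 4.41).

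The same soluble libraries served for SRP72-bound polysomes, to see which member messages copurify with SRP. Of the 40 tested members 34 rose, 33 by over 2-fold, 4 fell and 2 were not called; among all genes 77.9% were called, 39.0% higher, 25.8% higher by over 2-fold and 38.9% lower. Of the 34 members that passed in soluble libraries 28 rose and 4 fell, with a median of 6.19 against −0.04 over all tested genes. With cytosolic scaling the all-gene median became 0.26, calls across all genes became 67.7% higher in place of 50.1%, and the median of the 40 members was 6.20 in place of 5.91. Because both comparisons use the same soluble libraries, their values are set side by side and their likeness was not tested.

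HPF1 was again highest, at 7.25 ± 0.18 (adjusted p = 5.82e-09, edgeR), with 1136 and 1187 CPM in SRP72-bound polysomes. GAS1, PLB2, AGA1, PST1, PLB1, DFG5 and UTR2 followed at 6.90, 6.80, 6.79, 6.68, 6.66, 6.61 and 6.60. The other GAS genes stood at 6.57 (GAS5), 6.26 (GAS3), 3.51 (GAS2) and 2.74 (GAS4). CRH1 rose by 6.27, and the yapsins by 6.32 (MKC7), 6.23 (YPS3), 5.57 (YPS1) and 3.61 (YPS6). ECM33 rose by 6.50 ± 0.21, to 18969 and 14523 CPM, the highest level of any member there, and SPS22 by 3.48. PLB3, PRY3, EGT2 and DSE2 rose by 5.85, 6.26, 6.44 and 6.01, FIT1, FIG2 and SAG1 by 5.80, 4.73 and 3.04, and DCW1 by 6.32. GAS2, GAS4, SPS22, FIT1, FIG2 and SAG1 had passed the filter through the enriched fractions alone.

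In the middle range AFB1 rose by 6.15 ± 0.16, YNL190W by 5.97 ± 0.12, ROT1 by 5.56 ± 0.16, NCW2 by 3.54 ± 0.15 and NFG1 by 3.40 ± 0.16. CCW14 rose by 2.23 ± 0.17, to 2059.8 and 1477 CPM. TIP1, at 280.2 and 227 CPM in SRP72-bound polysomes, was called higher by 0.38 ± 0.12 (adjusted p = 0.0188, edgeR), the only member whose call differed from that on membranes. That call ended without soluble replicate 2 (0.34) or SRP72-bound replicate 1 (0.22). The 4 short members that fell were those that fell on membranes: SPI1, at −0.52 ± 0.12, lost its call with cytosolic scaling (−0.22). The cytosolic messages PGK1, TDH3, ADH1 and EFB1 were all called lower here as well, from −1.01 to −0.68. SPI1 and TOS6 (−0.53) lay above that range. FIT2 and FIT3 stood at −0.75 ± 0.43 and −0.42 ± 0.25 and were not called. By length 0 of 4, 8 of 10 and 20 of 20 of the 34 members rose, with medians of −0.80, 3.47 and 6.47. The other tested genes of the signal-sequence class were again not held to the soluble filter. In the same bins 8 of 14, 48 of 55 and 60 of 64 of them rose, with medians of 1.24, 5.40 and 6.24. Spearman's rho with length was 0.752 across the 34 members and 0.607 across the 40.

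Of the GPI synthesis genes 14 of 17 rose, from GPI1 at 4.13 to GPI19 at 8.03. PBN1 was the 1 that fell (−0.27 ± 0.09), and ERI1 (−0.15 ± 0.21) and SPT14 (0.16 ± 0.14) were not called. Among all genes 39.0% were called higher and 38.9% lower. All 5 transamidase genes, all 6 remodelling genes and all 4 p24 genes rose, with medians of 6.47, 7.02 and 5.40.

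SRP72-bound polysomes were then compared with membrane polysomes directly, which tests the difference between the enriched fractions. The 5 members over 2-fold higher on SRP were of 152 to 251 codons from signal to stop. Of 40 members 21 were called higher, 5 by over 2-fold, and 0 lower; among all genes 58.4% were called, 29.7% higher, 11.9% higher by over 2-fold and 28.7% lower. At an unadjusted p under 0.05 in edgeR also 0 members were lower, and DESeq2 called 0 lower. All 21 were among the 34 that passed in soluble libraries, whose median was 0.35, against −0.01 over all genes.

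NCW2 rose by 1.30 ± 0.14 (adjusted p = 0.000131, edgeR), from 126 and 131 CPM on membranes to 365 and 266 CPM on SRP. AFB1 rose by 1.17 ± 0.12, ROT1 by 1.14 ± 0.14, YNL190W by 1.07 ± 0.10 and NFG1 by 1.01 ± 0.14, and in these 5 the SRP72-bound libraries lay above the membrane libraries. CCW14 followed at 0.80 ± 0.16. These 6 calls held in all 10 alternatives run, as did those of PST1 (0.52), YPS3 (0.50) and EGT2 (0.57).

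The other 12 calls in this comparison each ended in at least 1 alternative. They were ECM33 (0.51), MKC7 (0.53), UTR2 (0.39), CRH1 (0.41), DSE2 (0.56), YPS6 (0.52), PRY3 (0.36), DCW1 (0.27), YPS1 (0.34), PLB1 (0.36), TOS6 (0.30) and GAS5 (0.33). Without membrane replicate 2, 11 members were called higher, and without SRP72-bound replicate 1, 13. GAS1 (0.26 ± 0.13, adjusted p = 0.116, edgeR), AGA1 (−0.02 ± 0.14), HPF1 (0.34 ± 0.13), TIP1 (0.29 ± 0.12), GAS3 (0.10), GAS4 (0.39), GAS2 (−0.09), SPS22 (−0.20), PLB2 (0.21), PLB3 (0.25), DFG5 (0.20), HOR7 (−0.22), DDR2 (−0.12), SPI1 (−0.15), FIT1 (0.24), FIT2 (−0.13), FIT3 (−0.12), FIG2 (0.04) and SAG1 (−0.02) were not called. Spearman's rho with length was 0.0833 across the 34 members and −0.0126 across the 40. The highest values were in the middle bin, with medians over the 34 of −0.13, 0.91 and 0.35 from the shortest to the longest. In the other tested genes of the signal-sequence class, not held to the soluble filter, the short bin had the highest median. Their medians were 0.90, 0.65 and 0.35 in the same order. Of them 9 of 14, 43 of 55 and 32 of 64 were called higher, and 6, 13 and 3 by over 2-fold.

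CHX in the culture gave another view of the fractions, from 1 library each, so ratios there have no replicate check and no test. In membrane against soluble ribosomes 28 of 37 measured members (at least 20 counts over both libraries) were past 2-fold higher and 0 past 2-fold lower, with a median log2 ratio of 3.09; among all genes 19.6% and 0.152% were past 2-fold. Members named as highest or lowest in single libraries, here and below, are ranked among those with at least 100 counts over both. PLB1, PLB2, DCW1, DFG5 and ECM33 were highest, at 4.54, 4.45, 4.37, 4.36 and 4.35. SPI1, DDR2, HOR7, FIT2 and TOS6 were lowest, at 0.16, −0.15, −0.17, −0.18 and −0.28.

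In SRP72-bound against soluble polysomes from CHX culture, 35 of 39 members were past 2-fold higher and 2 lower (median 5.98; 24.6% and 9.48% of all genes). HPF1, GAS5, GAS1, ECM33 and PLB1 were highest, at 6.97, 6.90, 6.89, 6.83 and 6.78. The lowest were FIT3 (2.03), FIT2 (0.32), TOS6 (−0.82), DDR2 (−1.19) and HOR7 (−1.44).

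Several short and middle members stood higher on SRP in CHX culture than without drug, while long members hardly differed. The CHX ratio less the drug-free log2 fold change, a difference formed after the values were seen, was over 1 for 6 of 39 members and under −1 for 2; among all genes 2.09% and 4.53% were past these sizes, and the member median was −0.01. The 6 were CCW14 and TIP1 (both 2.90), SPI1 (2.76), FIT3 (2.45), NCW2 (1.89) and FIT2 (1.07), of 141 to 251 codons from signal to stop, and NFG1 was just under at 0.99. The 2 were SPS22 (−1.28) and GAS4 (−1.02), both with few soluble counts.

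SPI1 was read at 4.72 CPM in soluble and 22.7 in SRP72-bound polysomes from CHX culture, where without drug both SRP72-bound libraries had lain below the soluble ones. TIP1 was at 161 and 1568 CPM, and CCW14 at 161 and 5617. In TIP1 and CCW14 the soluble CPM was lower and the SRP72-bound CPM higher than in any library without drug. The CHX libraries were scaled apart from the drug-free ones, so these levels are not on a common scale. The shortest members did not share the higher ratio in CHX culture: TOS6, HOR7 and DDR2 changed by −0.29, −0.35 and −0.11. Nor did YNL190W (0.10), AFB1 (−0.35) and ROT1 (−0.12), the middle members already high on SRP without drug. Of the 8 mannoproteins left out, 5 had a change over 1. The drug-free and CHX libraries were made separately, and a batch difference between them cannot be told apart from the drug.

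**Figure D3:**
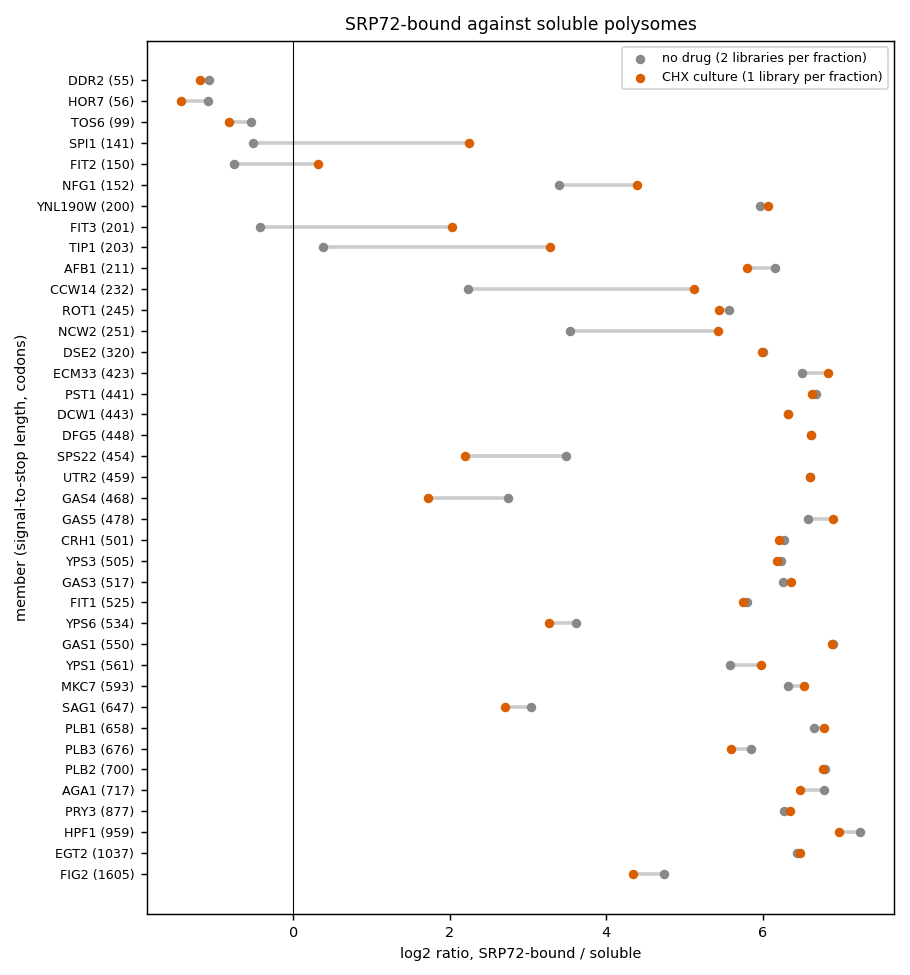
Log2 ratio of SRP72-bound to soluble polysome footprints for 39 members, ordered by signal-to-stop length. Grey points are the edgeR log2 fold changes without drug (2 libraries per fraction) and orange points the ratios in CHX culture (1 library per fraction). SPI1, FIT3, TIP1, CCW14 and NCW2 lie far to the right in CHX culture (2.24, 2.03, 3.29, 5.12 and 5.43), while most long members overlap.

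Messages themselves were followed in poly(A) RNA, where the soluble, membrane and SRP72-bound libraries of BY4741 were single. In the CHX lysate 30 of 47 members were past 2-fold higher in membrane than in soluble mRNA and 1 past 2-fold lower (median 2.15; 18.6% and 4.05% of all genes). The 1 lower, FLO9, rested on 36.0 soluble and 0 membrane counts, and among 43 members with at least 100 counts 27 were higher and 0 lower. GAS1 was highest, with 674 CPM in soluble and 8802 in membrane mRNA, a log2 ratio of 3.71. DFG5, GAS2, GAS3 and DCW1 followed at 3.62, 3.47, 3.46 and 3.46. The lowest were TOS6 (−0.18), FLO1 (−0.26), DAN4 (−0.30), SAG1 (−0.59) and DDR2 (−0.69).

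FLO1 and DAN4, among the longest members at 1528 and 1157 codons from signal to stop, thus had ratios near those of the shortest. Their footprints were too few to test. Other long members divided: MUC1 stood at −0.06 and FLO9 at −3.91, but FLO10, FIG2 and FLO5 at 1.19, 0.84 and 0.60. Reads of FLO1, FLO5 and FLO9 cannot be assigned securely among these genes. By length, 0 of 4, 5 of 11 and 25 of 32 members were past 2-fold higher on membranes. In soluble mRNA the level per kb of coding length ran from 0.105 CPM for SPS22 to 2886 for HOR7, with CCW14 at 769, ECM33 at 535, TIP1 at 462 and GAS1 at 402.

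SRP72-bound mRNA of the CHX lysate held 35 of 46 members past 2-fold higher than soluble mRNA and 5 lower (median 3.25; 22.3% and 20.5% of all genes). GAS1, DCW1, GAS3, DFG5 and PST1 led, at 5.66, 5.65, 5.53, 5.48 and 5.43. TIP1 (−0.75), TOS6 (−1.10), HOR7 (−1.42), FIT2 (−1.72) and DDR2 (−2.21) were lowest. SPI1 and FIT3, higher on SRP in CHX culture, stood at −0.59 and −0.13 here.

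Puromycin in the lysate was compared with CHX to see how far messages stay with a fraction once nascent chains are released. Membrane ratios of the members were lower with puromycin: 22 of 46 were past 2-fold higher than soluble mRNA and 0 lower (median 0.96; 7.57% and 2.51% of all genes). Among members with at least 100 counts the highest were HPF1 (2.28), GAS5 (2.21), GAS2 (2.15), PLB1 (2.07) and GAS1 (2.06). The lowest were TIP1 (−0.16), TOS6 (−0.20), SPI1 (−0.26), DAN4 (−0.45) and FIT2 (−0.76). FLO9 stood above these on 35.0 membrane and 0 soluble counts, so its ratio depends on the prior count. The change from CHX to puromycin was under −1 for 23 of 46 members and over 1 for 1, FLO9, on the few reads above (median −1.06; 17.0% and 5.27% of all genes).

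DFG5 went from 351 to 174 CPM in membrane mRNA and from 28.5 to 56.1 in soluble mRNA, a change in ratio of −1.99. ECM33 changed by −1.93, GAS3 by −1.88, MKC7 by −1.85, ROT1 by −1.71 and GAS1 by −1.65. GAS1 stood at a ratio of 2.06 after puromycin, still higher in membrane than in soluble mRNA. TOS6 and TIP1, near 0 in the CHX lysate, changed by −0.02 and 0.01.

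**Figure D4:**
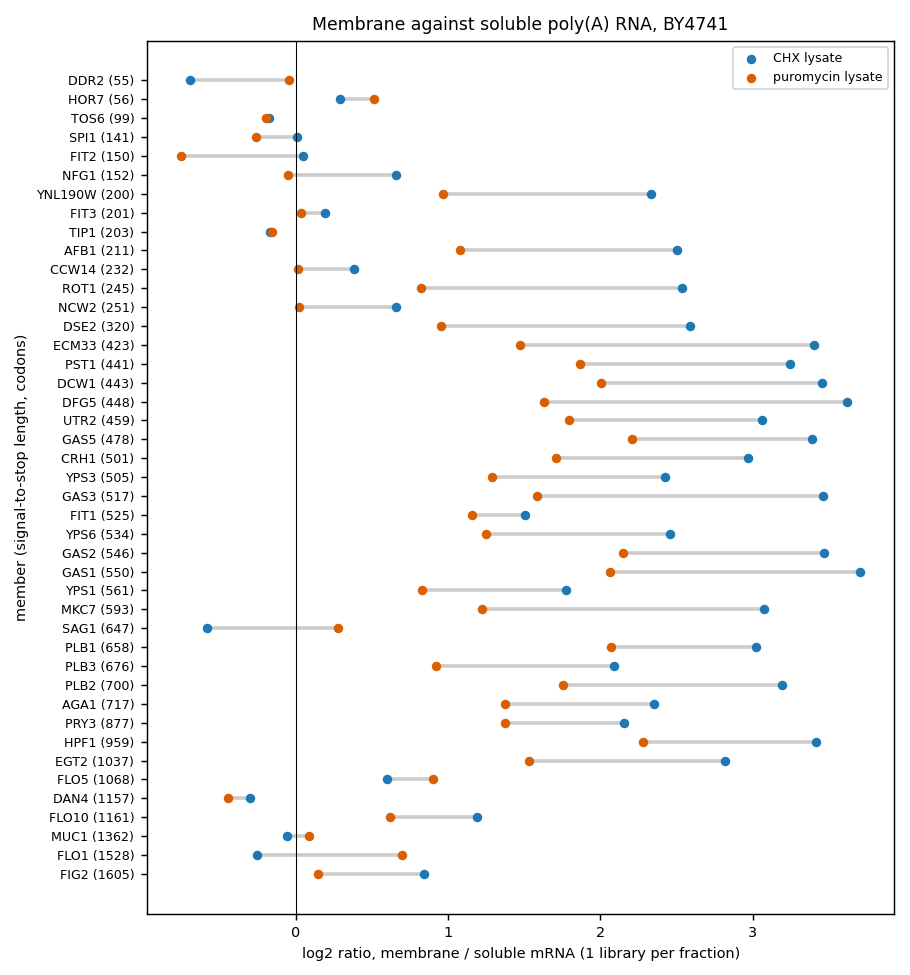
Log2 ratio of membrane to soluble poly(A) RNA in BY4741 lysates incubated with CHX (blue) or puromycin (orange), for the 43 members with at least 100 counts in each pair of libraries, ordered by signal-to-stop length. GAS1 moves from 3.71 to 2.06 and DFG5 from 3.62 to 1.63, while the 4 members under 150 codons lie between −0.69 and 0.51 in both.

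On SRP72-bound mRNA, 33 of 46 members were past 2-fold higher and 5 lower after puromycin (median 2.11; 18.9% and 21.2% of all genes). FLO9, at 0 soluble counts, and SPS22, at 0 SRP72-bound counts, were outermost. Among members with 100 or more the highest were HPF1 (4.15), GAS5 (3.76), GAS1 (3.70), DCW1 (3.68) and UTR2 (3.54). TIP1 (−0.98), TOS6 (−1.13), DDR2 (−1.26), SPI1 (−1.40) and HOR7 (−1.52) were lowest. The change from CHX was under −1 for 27 of 45 members and over 1 for 1, FLO9 (median −1.14; 24.8% and 6.48% of all genes). Among members with at least 100 counts NFG1 changed most, its ratio by −3.92, from 149 to 13.5 CPM in SRP72-bound mRNA while soluble mRNA went from 16.5 to 22.8. That took it from above the soluble level to below it.

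In W303 and prt1-1, shifted to 37 °C, the membrane ratio of member messages was compared before and after heat, with 1 library per fraction. At 25 °C 28 of 45 members were past 2-fold higher on membranes in W303 and 1 lower (median 2.01; 22.1% and 8.05% of all genes), and in prt1-1 29 of 44 higher and 3 lower (median 1.85; 22.6% and 12.2%). DCW1 was highest in both strains, at 4.02 and 4.48. PST1, GAS5, UTR2 and NFG1 followed in W303 (3.80, 3.80, 3.79 and 3.76), and DFG5, PST1, GAS5 and GAS1 in prt1-1 (3.79, 3.45, 3.39 and 3.36). Among members with at least 100 counts TOS6 was lowest in both, at −1.13 and −1.51, while FLO9, with fewer, stood at −0.86 and −1.72. Next above it were FLO10 (−0.11), FIT2 (0.07), FLO5 (0.14) and TIP1 (0.22) in W303, and FLO1 (−1.11), FIT2 (−0.70), FLO10 (−0.68) and FIT3 (−0.39) in prt1-1. SPI1 and DDR2, at 0.01 and −0.69 in BY4741, stood at 1.82 and 1.83 in W303, on 28.0 and 65.0 soluble counts, and at 1.82 and 1.86 in prt1-1.

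After 1 h at 37 °C 30 of 46 members were past 2-fold higher in W303 and 0 lower (median 1.93; 19.2% and 2.14% of all genes). PST1, ECM33, DFG5, DCW1 and GAS5 led at 4.42, 4.25, 4.21, 4.20 and 4.18, and MUC1, SPI1, DDR2, DAN4 and TOS6 were lowest at −0.06, −0.14, −0.23, −0.23 and −0.89. In prt1-1 7 of 49 were past 2-fold higher and 5 lower (median 0.01; 7.31% and 9.11% of all genes). NFG1, FLO9, EGT2, MKC7 and PLB3 were highest there, at 2.26, 2.24, 1.30, 1.11 and 1.08, and HOR7, YNL190W, GAS4, DDR2 and ANS1 lowest, at −0.96, −1.02, −1.26, −1.55 and −2.71.

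The change in ratio with heat was over 1 for 1 and under −1 for 4 of 45 members in W303 (median 0.15; 1.89% and 4.47% of all genes), and over 1 for 3 and under −1 for 29 of 44 in prt1-1 (median −1.57; 13.8% and 23.7%). In W303 the 1 was FIT3 (1.13) and the 4 DDR2 (−2.07), SPI1 (−1.96), NFG1 (−1.23) and PLB2 (−1.04). In prt1-1 the 3 were FLO9 (3.96), TOS6 (2.44) and FLO1 (1.50), the flocculins on few reads. DCW1 had the lowest change in prt1-1, −4.69, going from 1187 to 135 CPM in membrane mRNA while soluble mRNA went from 52.9 to 156. GAS1 went from 5139 to 530.4 CPM in membrane mRNA of prt1-1, a change in ratio of −3.19, against 0.36 in W303. With 1 library per strain, temperature and fraction the difference between strains was not tested.

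**Figure D5:**
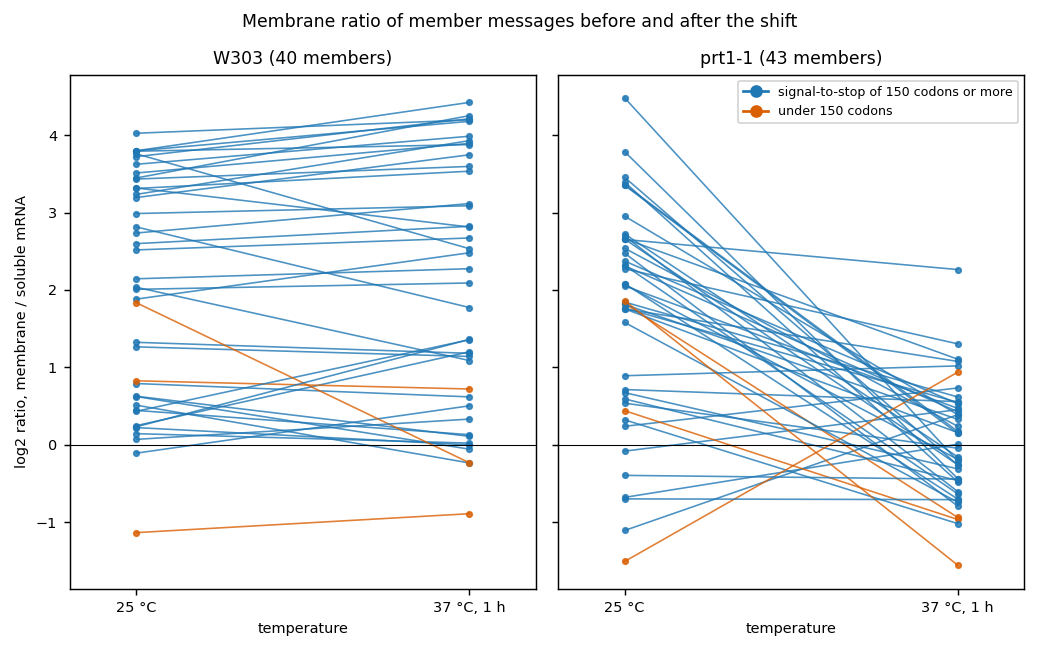
Log2 ratio of membrane to soluble mRNA at 25 °C and after 1 h at 37 °C, for members with at least 100 counts in each pair of libraries in W303 (left, 40 members) and prt1-1 (right, 43 members). Each line is 1 member, orange for those under 150 codons from signal to stop. Most lines are nearly level in W303 (DDR2 and NFG1 go down) and most go down toward 0 in prt1-1 (TOS6 and FLO1 go up), where DCW1 goes from 4.48 to −0.21.

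Levels of member messages in the soluble fraction also differed between temperatures. The stress-related DDR2 had the highest ratio of 37 to 25 °C in both strains, going from 6.85 to 138 CPM in W303 and from 6.66 to 483 in prt1-1, log2 ratios of 4.29 and 6.13. SPI1 (3.35 and 3.51) and YPS6 (2.23 and 4.94) were also higher in both, as was GAS2 (2.24 and 3.22) on few reads. DAN4 was among the highest in W303 (1.75) and PST1 in prt1-1 (3.24).

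In W303 the lowest ratios were of ECM33 (−1.15), GAS1 (−0.92), EGT2 (−0.90), UTR2 (−0.85) and PLB3 (−0.73), all long wall or surface proteins. In prt1-1 they were of TOS6 (−2.78), NFG1 (−2.56), TIP1 (−1.71), FIT3 (−1.004) and EGT2 (−0.44). Past 2-fold, 7 of 46 members were higher and 1 lower in W303 (10.7% and 9.02% of all genes), and 25 of 49 higher and 4 lower in prt1-1 (28.8% and 16.4%), where the median of all genes was 0.25. FIT2 differed between the strains before the shift as well, at 9.38 CPM in soluble mRNA of W303 and 278 in prt1-1, with FIT3 at 22.6 and 718.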

How the data were processed

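Raw counts per open reading frame were deposited by the authors for footprints and poly(A) RNA, per the file headers; their sheets give no normalization. The authors' deposited log2 enrichments, made by the authors from reads scaled with DESeq2, give no result here. The authors' class, GPI mark, signal positions and calls are deposited annotations. CASAVA, cutadapt 1.3, Bowtie, TopHat and sacCer3 are named per the submitters' processing notes; nothing read here states how multiply mapping reads or strand were handled. Lines with no name (3 per table) were dropped. Counts of 24 libraries entered the analysis, the 6 samples of monosomes did not, and BY4741 RNA columns naming no drug were taken as CHX lysate by elimination.

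Drug-free polysomes (3 fractions, 2 libraries each) were fitted together with edgeR 4.0.16 in R 4.3.3: TMM scaling (factors 0.61 to 1.60), filterByExpr (minimum count 10, about 0.349 CPM; total 15), the quasi-likelihood test with 3 residual degrees of freedom, and Benjamini-Hochberg adjustment over 5393 genes, called at 0.05. The common biological coefficient of variation was 0.0805. Replicates differed beyond sampling noise (chi-square per degree of freedom 15.3, 38.2 and 89.5 for soluble, membrane and SRP72-bound). Single libraries were compared as log2 ratios of TMM-scaled CPM with a prior count of 2, for genes with 20 or more summed counts, with no test; the size used is 2-fold. The fit was tested on simulated data. Alternatives were DESeq2 1.42.0, other scalings (cytosolic scaling uses the median ratio of the authors' cytonuclear class), filters, prior counts, the replicate block and leaving out each library.

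Genes were named by role, length and rank: all members of the GAS, CRH, yapsin, ECM33, phospholipase B and mannoprotein groups, the 8 highest and 8 lowest, members under 150 codons and those whose calls differed, and for single libraries the 5 highest and 5 lowest with 100 or more counts; the others named were chosen after their values were seen. The members and lists were chosen with earlier results of these data known. Names were the authors' for 44 members and RefSeq's (R64) for 4; 1 has only its systematic name. Of 111 list entries 4 found no match. No protein or promoter sequence was used here.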

Additional observations from a re-analysis of the deposited data

Results flagged for a closer look

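The change in log2 membrane mRNA ratio with heat went opposite ways in W303 and prt1-1, by over 0.5 in each, for 7 of 42 members with at least 20 counts in all 8 libraries (16.7%), against 5.56% of 5160 genes. ECM33 changed by 0.81 in W303 and −2.88 in prt1-1, PST1 by 0.62 and −3.72, CRH1 by 0.69 and −2.91, and GAS3 by 0.55 and −2.30. YPS1 changed by 0.60 and −1.58, CCW14 by 0.95 and −1.05, and PLB3 by 0.92 and −0.68. Of 44 members measured in both strains, 23 had a higher ratio after heat in W303 and a lower one in prt1-1, and 4 the reverse (52.3% and 9.09%). Of 5420 genes 22.7% and 19.0% did. Each value rests on 1 library per strain, temperature and fraction, so the difference was not tested.

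SPI1 had an SRP72-bound to soluble log2 fold change of −0.52 without drug, with both SRP72-bound libraries below both soluble ones, and a log2 ratio of 2.24 in CHX culture, from 1 library per fraction. That difference was not tested.

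NFG1 stood at a log2 ratio of 3.17 in SRP72-bound against soluble mRNA of the CHX lysate and at −0.75 in the puromycin lysate. Both rest on single libraries, and that difference too was not tested.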

How the results depend on the processing

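In both comparisons with soluble polysomes, counts of members called higher or lower stayed within 1.5 times the reported count in all alternatives run, and 36 of 37 and 36 of 38 calls held in every one of 10 alternatives (SPI1, and SPI1 and TIP1, did not). Against membrane polysomes 9 of 21 SRP72-bound calls did: the count higher ran from 11 to 20 with 1 library left out and was 15 with only the compared groups, and the count lower ran from 0 to 1 (HOR7 at −0.37 without membrane replicate 1). The cause was not tested.

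The labels give shared numbers only, and deviations of same-numbered libraries correlated at 0.325, 0.120 and 0.0873, so the pairing is not established. With the replicate block 33, 34 and 23 members were called higher (membrane and SRP72-bound against soluble, then SRP72-bound against membrane) and 6, 6 and 0 lower. FIT2 and FIT3 were the calls gained against soluble polysomes.

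Over the 34 members that passed the filter in soluble libraries, an alternative chosen after seeing the data, Spearman's rho with length was 0.783, 0.752 and 0.0833, in place of 0.656, 0.607 and −0.0126.

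Values of members that were not called changed sign with 1 library left out. TIP1 on membranes ran from −0.00117 to 0.18. In SRP72-bound against membrane polysomes FIG2 ran from −0.17 to 0.26, FIT1 from −0.24 to 0.84, FIT2 from −0.68 to 0.53, FIT3 from −0.52 to 0.19, SAG1 from −0.30 to 0.38, AGA1 from −0.20 to 0.18, GAS2 from −0.57 to 0.18, GAS3 from −0.022 to 0.23 and DDR2 from −0.37 to 0.047. With cytosolic scaling SAG1 was 0.050 and AGA1 0.052, and with DESeq2 SAG1 was 0.029.

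In single libraries, dropping the minimum count took counts lower from 0 to 1 (CHX membrane ribosomes), 1 to 3 (CHX-lysate membrane mRNA), 0 to 1 (puromycin membrane mRNA) and 3 to 5 (prt1-1 at 25 °C). It took counts higher from 1 to 2 (both puromycin changes), 1 to 3 (W303 heat) and 3 to 5 (prt1-1 heat). Cytosolic scaling took the count lower from 2 to 1 (CHX SRP72-bound) and 1 to 0 (W303 at 25 °C), relative log expression factors the count higher from 1 to 2 (puromycin change on membranes), and a prior count of 0.5, an alternative chosen after seeing the data, the count lower of CHX culture less no drug from 2 to 0. At these depths 9 members had too few footprints for the test.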
